A study of Mus musculus with 8 samples.

Results

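Paired myeloid receptors and the CD47 axis were followed in leukaemic spleen cells sorted on surface c-kit. The 10 genes were the ligand gene Cd47, the inhibitory receptor genes Sirpa, Cd300a, Cd300lf and Pilra, the activating receptor genes Sirpb1a, Trem1, Trem2 and Trem3, and the signalling adaptor gene Tyrobp. Members were all probe sets (groups of array probes summarised as 1 value) that the platform annotation gives to exactly 1 of these symbols. This gave 19 of the 45037 probe sets other than controls, for 10 of 18193 named genes. Every member was measured, and none was removed for low signal. Of the 19 probe sets, 17 had a mean intensity of at least 64 over the 8 arrays, and the 2 below it were those of Trem2.

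Myeloid cells carry families of closely related surface receptors that come in opposing pairs. The inhibitory partner has a long cytoplasmic tail with ITIM motifs, which on phosphorylation recruit the phosphatases SHP-1 and SHP-2. The activating partner has a short tail and signals through an adaptor with an ITAM motif, most often DAP12, the product of Tyrobp, which recruits the kinase Syk. CD47 is found on nearly all cells and binds SIRPα, the Sirpa product, on phagocytes, where it restrains engulfment of the cell that carries it. In human acute myeloid leukaemia, CD47 is known as a surface protein of leukaemia stem cells.

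The cells came from the spleens of 4 mice with an acute myeloid leukaemia that MLL-AF10 initiated, a gene fusion between the histone methyltransferase MLL and AF10. All mice were recipients of the strain written CD57BL/6 in the labels, were irradiated below a lethal dose, and received syngeneic c-kit+ bone marrow stem and progenitor cells that a retrovirus had transduced and immortalised. From each spleen a c-kit-high fraction (CD117pos) and a c-kit-negative fraction (CD117neg) were sorted, giving 4 CD117pos and 4 CD117neg arrays. The mice are called by the endings of the array titles, _948, _951, _952 and _953. The labels do not say whether the leukaemias came from separate transductions, and they name no gate other than c-kit, so either fraction may hold cells of the host.

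Kit, the sorted marker, measured 751 ± 127 in the CD117pos arrays and 28.6 ± 9.73 in the CD117neg arrays (SD, n = 4 each). The CD117pos array of mouse _951 stood apart: on the log2 scale used for the tests, correlations among CD117pos arrays ran from 0.928 to 0.987, and from 0.985 to 0.987 without it, against 0.978 to 0.988 among CD117neg arrays. Of 8 measured myeloid marker genes, 6 were lower in CD117pos (Itgam, Csf1r, Ptprc, Spi1, Fcgr3 and Cd68) and 1 was higher (Mpo), while Cebpa did not pass. Mpo measured 8583 ± 1656 in CD117pos and 1868 ± 461 in CD117neg arrays. The summed intensities of the list were 11507 to 17765 in CD117pos and 22070 to 24491 in CD117neg arrays. The lists for T cells, NK cells, erythroid cells and platelets (18 measured genes) had sums of 33.9 to 263 in CD117pos and 34.6 to 151 in CD117neg arrays, with no gene called and the highest sum that of T cell genes in the CD117pos array of mouse _951 (58.7 at most in the other CD117pos arrays). Cd3e, Cd3g and Cd3d lay below the array median on all 8 arrays. The B cell sums were 127 to 278 in CD117pos and 462 to 707 in CD117neg arrays, with 1 of 5 genes called (Cd22, lower). Cd22 measured 17.2 ± 5.92 in CD117pos and 326 ± 97.8 in CD117neg arrays. The dendritic cell sums were 98.9 to 113 in CD117pos and 517 to 856 in CD117neg arrays, with 1 of 5 called (Itgax, lower). Itgax measured 43.8 ± 7.02 in CD117pos and 605 ± 128 in CD117neg arrays, while Pax5 and Xcr1 lay below the array median on all 8 arrays. The sums of 8 splenic macrophage markers were 2615 to 3880 in CD117pos and 3119 to 4513 in CD117neg arrays, and C1qa and C1qc lay below the array median on all 8 arrays, while Vcam1 alone was called (higher). In the CD117pos array of mouse _951 the mast cell and basophil sum was 1270, against 280 to 333 in the other CD117pos arrays and 83.3 to 244 in the CD117neg arrays, and the stromal and endothelial sum was 655, against 105 to 136 in the other CD117pos and 187 to 222 in the CD117neg arrays, with 1 of 5 genes (Mcpt8, higher) and 1 of 6 (Pecam1, lower) called. Of these 2 lists, Cpa3, Fcer1a and Mcpt4, and Cdh5, Col1a1 and Col3a1, lay below the array median on all 8 arrays. Single genes spread widely among the CD117pos arrays: Ms4a2 (247 ± 317), Pdgfrb (150 ± 267) and, of the T cell list, Thy1 (76.9 ± 113). The part of such cells in the differences below was not tested, and in bulk RNA fewer cells of a type and less RNA per cell cannot be told apart.

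The regions before the start sites of several members are shown because most of the genes shown were lower in CD117pos cells. RefSeq promoter windows (GRCm38.p6) matched 7 of the 10 members, among them Trem2 and without Sirpa, Trem3 and Tyrobp. Below are the 250 bases before the start of 5 genes that were lower in CD117pos cells and of Cd47, for comparison, each 5′ to 3′ on the gene's strand. Cd47 passed, lower, only by its dim probe set 1459908_at. Capitals mark the core of the site bound by PU.1, a transcription factor of the myeloid lineage, searched as GAGGAA on both strands, so that TTCCTC is the same motif read on the other strand.
Cd47, chr16:49855404-49855653, plus strand: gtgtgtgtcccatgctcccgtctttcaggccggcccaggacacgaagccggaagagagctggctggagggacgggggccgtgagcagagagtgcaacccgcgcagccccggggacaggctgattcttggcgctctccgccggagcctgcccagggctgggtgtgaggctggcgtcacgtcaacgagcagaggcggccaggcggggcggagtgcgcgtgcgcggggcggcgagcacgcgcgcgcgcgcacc
Cd300a, chr11:114889791-114890040, plus strand: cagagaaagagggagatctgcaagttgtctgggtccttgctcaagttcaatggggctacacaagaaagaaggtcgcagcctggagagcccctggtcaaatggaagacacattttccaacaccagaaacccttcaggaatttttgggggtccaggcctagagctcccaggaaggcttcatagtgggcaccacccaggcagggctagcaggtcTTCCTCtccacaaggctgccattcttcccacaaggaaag
Cd300lf, chr11:115133993-115134242, minus strand: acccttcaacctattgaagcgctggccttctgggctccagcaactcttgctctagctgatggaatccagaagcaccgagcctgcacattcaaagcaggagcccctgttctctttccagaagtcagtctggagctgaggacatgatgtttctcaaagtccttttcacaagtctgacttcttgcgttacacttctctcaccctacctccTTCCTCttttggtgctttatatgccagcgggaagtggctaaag
Pilra, chr5:137836279-137836528, minus strand: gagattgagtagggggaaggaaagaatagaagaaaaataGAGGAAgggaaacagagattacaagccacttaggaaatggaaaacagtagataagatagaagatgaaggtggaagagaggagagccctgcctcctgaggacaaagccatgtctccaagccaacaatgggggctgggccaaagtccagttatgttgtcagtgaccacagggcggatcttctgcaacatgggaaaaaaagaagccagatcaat
Sirpb1a, chr3:15426428-15426677, minus strand: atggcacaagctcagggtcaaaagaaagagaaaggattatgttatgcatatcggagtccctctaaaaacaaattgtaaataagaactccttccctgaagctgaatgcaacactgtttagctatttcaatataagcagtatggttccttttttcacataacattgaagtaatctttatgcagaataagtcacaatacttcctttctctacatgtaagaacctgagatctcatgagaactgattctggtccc
Trem1, chr17:48232489-48232738, plus strand: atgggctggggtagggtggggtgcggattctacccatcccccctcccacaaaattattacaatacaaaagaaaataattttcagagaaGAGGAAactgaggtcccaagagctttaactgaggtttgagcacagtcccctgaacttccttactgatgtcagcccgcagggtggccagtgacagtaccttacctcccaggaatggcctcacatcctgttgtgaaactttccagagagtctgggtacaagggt
The motif lay 39 and 43 bases before the start in Cd300a and Cd300lf, and 211 and 162 bases before it in Pilra and Trem1, counted from the motif's first printed base. The windows of Sirpb1a and Cd47 held no match to these letters. Over the members, 5 of 7 windows held a match, the fifth being that of Trem2, and over all 32851 RefSeq windows of this length the share was 23.3%. Only the window of lowest coordinate was used for each member, while the shares over all windows count every listed window. Trem2 did not pass by either probe set (limma, adjusted p = 0.778 and 0.789). Sirpb1a, without a match, had the largest difference of the members (-5.82 on the log2 scale). Whether the motif has a part in the differences was not tested. TTGCNNAA, a form of the C/EBP site, was found in the windows of Cd300a and Pilra and in 9.56% of all windows. The RUNX core TGTGGT was found in the Pilra window and in 14.0% of all windows, and the AP-1 site TGANTCA in the Trem2 window and in 6.75% of all. Each motif was searched on both strands, a match is a stretch of letters, and it does not show that a factor binds there.

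Several receptor genes of both signs were lower in the c-kit-high fraction, while Cd47, Trem2, Trem3 and Tyrobp, by their brightest probe sets, did not pass the test. Of the 19 member probe sets, 10 were lower in CD117pos (52.6%) and 0 were higher (limma, adjusted p under 0.05). Over all probe sets, 10.9% were lower and 5.60% were higher. Many of these are dimmer than the members. When only the 17944 probe sets with a mean of at least 64 were tested, 4661 were lower and 2686 higher. Among them 12 of the 17 member probe sets were lower. In 13 member probe sets (68.4%) every CD117pos array lay below every CD117neg array, which was so for 15.0% of all probe sets, dim ones included. This share was not taken over the brighter probe sets alone. The median log2 difference was -1.04 over the member probe sets and -0.02 over all probe sets. It was -0.08 over all those with a mean of at least 64. All differences are CD117pos minus CD117neg on the scale log2(intensity + 16), which understates changes of dim probe sets, and folds come from that scale. Of all calls 34.0% were higher as deposited, 51.4% after quantile normalisation and 45.1% after centring on array medians. Among member probe sets 9 were lower after quantile normalisation, 10 after centring and 8 with a pseudocount of 1, with 0 higher under each. Counts without 1 mouse were 7 (_948), 12 (_951), 7 (_952) and 6 (_953).

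**Figure D1:**
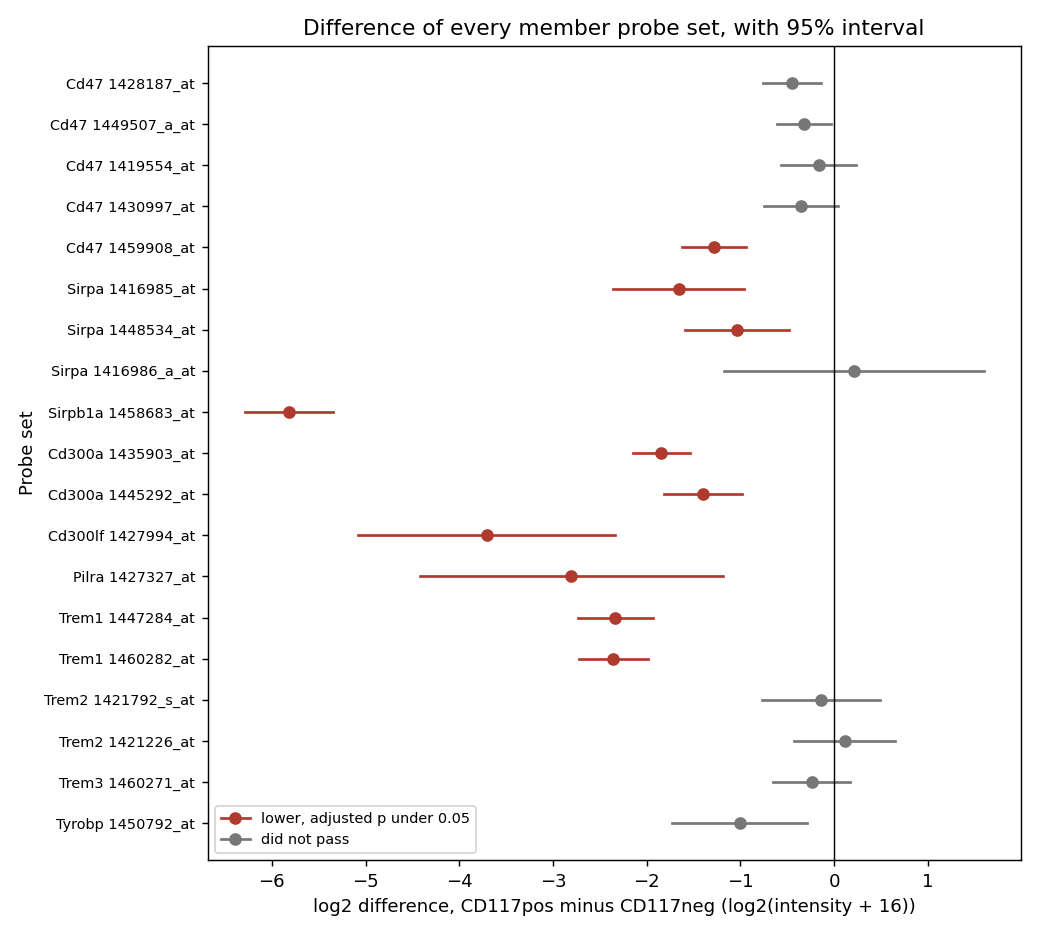
Log2 difference, CD117pos minus CD117neg, of every member probe set (points) with its 95% confidence interval from limma (bars). The Sirpb1a probe set lies farthest from 0, at -5.82, and the bars of Cd300lf, Pilra and the dim Sirpa probe set 1416986_a_at are the widest.

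Cd47, which encodes the ligand of SIRPα, did not pass the test by its 3 brightest probe sets, and 1 of its 5 probe sets passed, lower in CD117pos cells. The brightest, 1428187_at, measured 3232, 3548, 3948 and 3182 in the CD117pos arrays of mice _948, _951, _952 and _953, against 4577, 5415, 4483 and 4485 in their CD117neg arrays. The fractions did not overlap, and the largest CD117pos value was that of mouse _952. Its log2 difference was -0.45 ± 0.13 (SE), with a 95% interval of -0.75 to -0.14, and did not pass the test (limma, adjusted p = 0.0656). It passed with a pseudocount of 64 (0.0284), without dim probe sets (0.0365), with an intensity trend (0.0196) and without the mouse block (0.0351). The second probe set, 1449507_a_at, differed by -0.32 ± 0.12 (adjusted p = 0.127, and 0.0361 with a pseudocount of 64 and 0.0376 with an intensity trend), again with no overlap. The third, 1419554_at, measured 3055 ± 435 in CD117pos and 3426 ± 524 in CD117neg arrays (SD, n = 4 each), a difference of -0.16 ± 0.16 (limma, adjusted p = 0.58) that became 0.02 after quantile normalisation and 0.01 without mouse _948. The interval of this probe set, -0.56 to 0.24, holds both a small fall and a small rise.

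Of the dimmer pair, probe set 1459908_at measured 39.9, 39.0, 62.2 and 38.1 in the CD117pos arrays, against 152, 122, 139 and 110 in the CD117neg arrays, with no overlap. It fell by 1.28 ± 0.14 on the log2 scale (limma, adjusted p = 0.00404), and by 0.84 with a pseudocount of 64. Probe set 1430997_at measured 67.5, 134, 83.2 and 66.9 in CD117pos, against 115, 124, 130 and 86.1 in CD117neg arrays. There the CD117pos array of mouse _951 was above all CD117neg arrays, and the difference of -0.35 ± 0.16 did not pass (limma, adjusted p = 0.212), though it did without mouse _951 (-0.50, adjusted p = 0.0477). Which transcript forms of Cd47 each probe set detects was not examined.

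Sirpa, which encodes the inhibitory receptor for CD47, was lower in c-kit-high cells of every mouse by probe sets 1416985_at and 1448534_at, but not by 1416986_a_at. Its brightest probe set, 1416985_at, measured 758, 266, 829 and 756 in the CD117pos arrays, against 1880, 1891, 1905 and 2027 in the CD117neg arrays. The CD117neg values lay within a narrow band, and mouse _951 had by far the lowest CD117pos value. Sirpa thus differed by -1.66 ± 0.28 on the log2 scale, or 3.16-fold lower (limma, adjusted p = 0.0145). Without mouse _951 it was -1.29 (adjusted p = 0.00247), and the call ended without mouse _948 (0.0619), _952 (0.0526) or _953 (0.0695). The dimmer probe set 1448534_at measured 103, 43.1, 105 and 103 in CD117pos, against 173, 198, 176 and 215 in CD117neg arrays, and fell by 1.04 ± 0.23 (limma, adjusted p = 0.0312). That call ended after quantile normalisation (0.0547), at a pseudocount of 1 (0.0768) and on leaving out mouse _948 (0.0871), _952 (0.0827) or _953 (0.119), while without mouse _951 the difference was -0.76 (0.0133). The third probe set, 1416986_a_at, was dim and scattered, with 38.6, 28.5, 224 and 31.4 in CD117pos and 51.1, 92.6, 29.8 and 29.8 in CD117neg arrays. Its difference of 0.21 ± 0.56 did not pass (limma, adjusted p = 0.851) and was -0.51 without mouse _952, which held the value of 224.

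Sirpb1a, which encodes an activating SIRP protein that couples to DAP12, had the largest difference of the members. Its probe set measured 15.3, 21.6, 11.3 and 9.62 in the CD117pos arrays, against 1482, 1485, 2112 and 1736 in the CD117neg arrays. All 4 CD117pos values lay below the median of their arrays. The log2 difference was -5.82 ± 0.19 (limma, adjusted p = 0.000183), and it was -6.83 with a pseudocount of 1 and -4.48 with a pseudocount of 64, so its size depends on this setting and its direction does not. A further probe set, annotated to Sirpb1c, Sirpb1b and Sirpb1a together and therefore not a member, had a CD117pos mean of 12.4 ± 1.69 and a CD117neg mean of 2807 ± 238. These genes are close relatives, and the member probe set may also detect transcripts of the others.

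Cd300a and Cd300lf, members of an immunoglobulin-like receptor family of myeloid cells that binds lipids, were lower in CD117pos cells. Cd300a, which encodes an inhibitory receptor with ITIM motifs, measured 831, 488, 694 and 807 in the CD117pos arrays, against 2893, 2103, 2559 and 2606 in the CD117neg arrays (probe set 1435903_at). The fractions were far apart in every mouse. The log2 difference was -1.85 ± 0.12, or 3.59-fold lower (limma, adjusted p = 0.00114). The second Cd300a probe set, 1445292_at, measured 40.0 ± 6.99 in CD117pos and 134 ± 34.3 in CD117neg arrays (SD, n = 4 each) and differed by -1.40 ± 0.17 (limma, adjusted p = 0.00524).

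Cd300lf, whose product is likewise an inhibitory receptor, measured 368, 40.3, 332 and 438 in the CD117pos arrays, against 2666, 3618, 2661 and 3774 in the CD117neg arrays. The CD117pos array of mouse _951 was far below the other CD117pos arrays. Its log2 difference was -3.71 ± 0.56, or 13.0-fold lower (limma, adjusted p = 0.01), and without mouse _951 it was -2.94 (adjusted p = 0.000334). The call ended without mouse _953 (0.0544).

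Pilra, which encodes the inhibitory partner of the activating PILR receptors, measured 951.9, 68.6, 968 and 1065 in the CD117pos arrays, against 3617, 3932, 3873 and 3692 in the CD117neg arrays. Again mouse _951 was far below the other CD117pos arrays, while the CD117neg arrays were close together. Its log2 difference was -2.80 ± 0.66, or 6.98-fold lower (limma, adjusted p = 0.0382), and -1.89 without mouse _951 (adjusted p = 0.000852). Leaving out mouse _948 (0.106), _952 (0.106) or _953 (0.103) ended the call, as did a pseudocount of 1 (0.081).

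**Figure D2:**
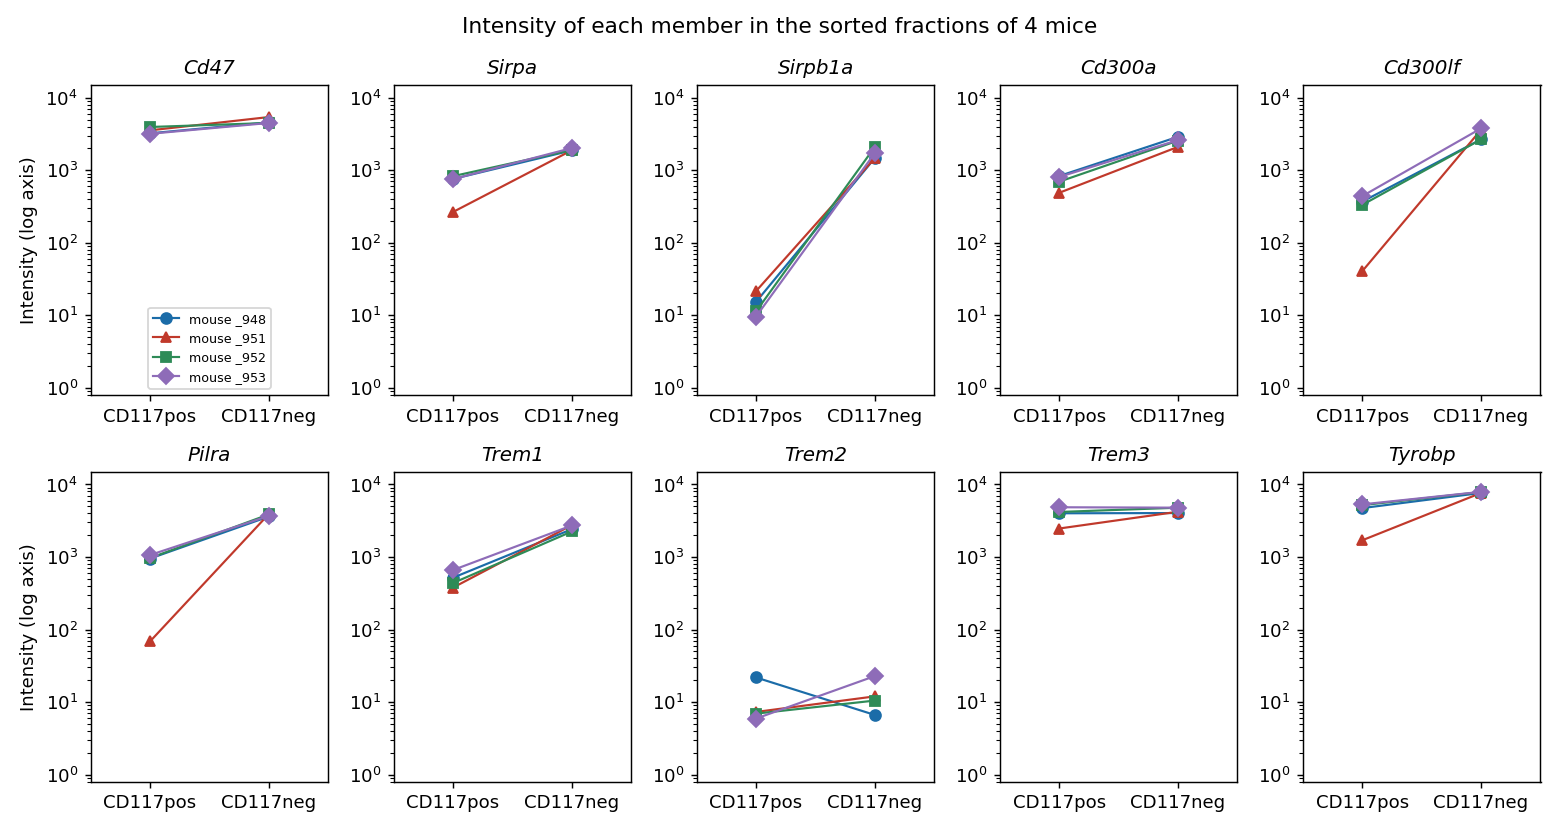
Intensity (log axis, arbitrary units) of each member, shown by its brightest probe set, in the CD117pos and CD117neg arrays. Each line joins the fractions of 1 mouse, and the CD117pos points of mouse _951 lie below those of the other mice for Sirpa, Cd300a, Cd300lf, Pilra, Trem1, Trem3 and Tyrobp but not for Cd47, Sirpb1a or Trem2.

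Of the 3 TREM genes, which encode activating receptors that pair with DAP12, Trem1 was lower in CD117pos cells, and Trem2 and Trem3 did not pass the test. Trem1, whose product amplifies inflammatory responses of neutrophils and monocytes, measured 519, 379, 438 and 661 in the CD117pos arrays, against 2423, 2756, 2252 and 2724 in the CD117neg arrays (probe set 1447284_at). The fractions did not overlap, and the log2 difference was -2.34 ± 0.16, or 5.05-fold lower (limma, adjusted p = 0.00127). The second, dimmer Trem1 probe set, 1460282_at, differed by -2.35 ± 0.15 (limma, adjusted p = 0.000969), so that both gave nearly the same value.

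Trem3, an activating receptor gene of the mouse that in humans is a pseudogene, measured 4005, 2468, 4176 and 4850 in the CD117pos arrays, against 4035, 4207, 4780 and 4787 in the CD117neg arrays. The fractions overlapped, and mouse _951 alone had a clearly lower CD117pos value. The log2 difference was -0.24 ± 0.17, with a 95% interval of -0.65 to 0.18 (limma, adjusted p = 0.422), and -0.06 without mouse _951. Trem2, a receptor gene of tissue macrophages and microglia, measured 5.93 to 21.8 in CD117pos and 6.64 to 22.9 in CD117neg arrays by probe set 1421792_s_at. By 1421226_at it measured 1.51 to 9.03 in CD117pos and 1 to 10.6 in CD117neg arrays, and 2 CD117neg values of that probe set were at 1, the lowest value in the files. All Trem2 values lay below the array medians, so no difference was detectable at this signal (limma, adjusted p = 0.778 and 0.789).

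Tyrobp, which encodes the adaptor DAP12 of the activating receptors, was lower in CD117pos cells of all 4 mice without passing the test. It measured 4720, 1697, 5181 and 5310 in the CD117pos arrays, against 7635, 7638, 7868 and 7906 in the CD117neg arrays. The fractions did not overlap, and the spread lay almost wholly in the CD117pos array of mouse _951. The log2 difference was -1.01 ± 0.29 (limma, adjusted p = 0.0723). Without mouse _951 the difference was smaller, -0.62, and passed (adjusted p = 0.0179), and it also passed without dim probe sets (0.0485) and with an intensity trend (0.0491).

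Members differed in how far mouse _951 stood from the other mice. The differences of Sirpa, Cd300lf, Pilra and Tyrobp were -2.76, -6.01, -5.55 and -2.16 in mouse _951. In the other mice they ran from -1.40 to -1.19 for Sirpa, from -3.06 to -2.80 for Cd300lf, from -1.98 to -1.78 for Pilra and from -0.69 to -0.57 for Tyrobp. For Sirpb1a mouse _951 had the smallest difference, -5.32, against -6.28 to -5.58 in the others. Of the 10 member probe sets that passed, mouse _951 had the largest fall in 7. Their median difference was -2.72 in mouse _951, -1.86 in _948, -1.92 in _952 and -1.72 in _953, while the median over all probe sets was -0.06, -0.05, -0.01 and -0.04 in the same order of mice.

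**Figure D3:**
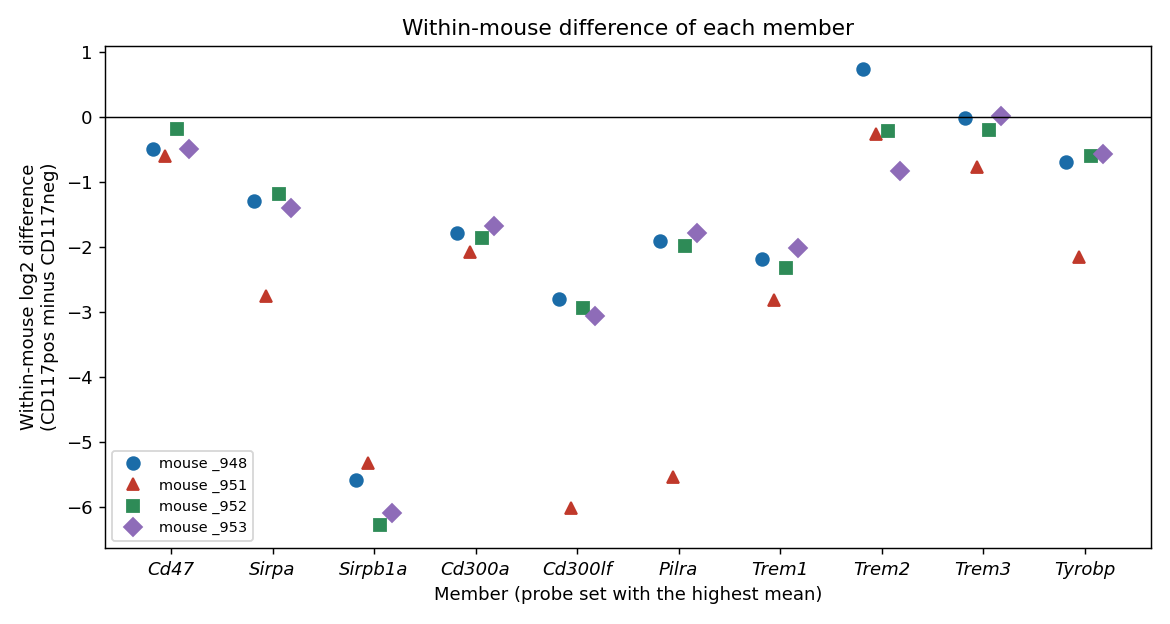
Within-mouse log2 difference, CD117pos minus CD117neg, of each member by its brightest probe set. Each point is 1 mouse; mouse _951 lies far below the others for Sirpa, Cd300lf, Pilra and Tyrobp, the 4 Cd47 points lie between -0.61 and -0.18, and the Trem3 points lie between -0.19 and 0.02 apart from mouse _951 at -0.77.

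In all, 3 pairs of members were compared for unequal change within mice, by an exact two-sided sign-flip permutation test over 4 mice. This test cannot give a p below 0.125, so it cannot decide whether any pair changed unequally. The pairs were not set in the plan of tests, and their members were chosen with earlier results of these data known. The Trem1 difference was below that of Trem3 in 4 of 4 mice, with a mean of -2.10 ± 0.07 on the log2 scale (SD, n = 4, exact p = 0.125). The Sirpb1a difference was below that of Sirpa in 4 of 4 mice, with a mean of -4.16 ± 1.11 (exact p = 0.125). The Sirpa difference was below that of Cd47 in 4 of 4 mice, with a mean of -1.21 ± 0.63 (exact p = 0.125). Adjusted over the 3 comparisons, each p was 0.125.

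Several members lie next to relatives in the genome, and some of these neighbours were lower in CD117pos cells as well. In RefSeq order, Trem1 is followed by Trem3, Treml4, Treml2, B430306N03Rik, Trem2 and Treml1. Of these 7 genes 3 were lower in CD117pos by their brightest probe set (limma, adjusted p under 0.05), against 12.9% of all named genes. They were Trem1, Treml4 (-4.61 ± 0.26) and B430306N03Rik (-2.79 ± 0.51), the last named after its value was seen. The call of B430306N03Rik (limma, adjusted p = 0.0183) ended at a pseudocount of 1 (0.0504) and on leaving out mouse _948 (0.076), _952 (0.0712) or _953 (0.0593), and its difference was -2.09 without mouse _951 (0.00127). Between and including Cd300a and Cd300lf, 6 of 12 genes had a probe set of their own, and 6 of these were lower. The 6 were Cd300a, Cd300lb, Cd300ld, Cd300c2, Cd300lf and the unrelated GTPase gene Rab37 (-0.64 ± 0.16), whose mean over the arrays was 50.6. The Rab37 call (limma, adjusted p = 0.0432) ended under 8 alternatives, among them quantile normalisation (0.0763), centring (0.0719) and leaving out any 1 mouse (0.0603 to 0.167). Pilra is followed by the activating receptor gene Pilrb1, which measured 1109 ± 613 in CD117pos and 4388 ± 352 in CD117neg arrays and differed by -2.28 ± 0.50. The Pilrb1 call (limma, adjusted p = 0.0302) ended without mouse _948 (0.0917), _952 (0.0944) or _953 (0.0877), and also with a pseudocount of 1 (0.0666). Without mouse _951 Pilrb1 differed by -1.60 (0.00137). Tyrobp is followed by Hcst, the gene of the related adaptor DAP10, which differed by -0.61 ± 0.18 without passing (limma, adjusted p = 0.0797).

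Other paired receptors of myeloid cells were also often lower in CD117pos cells. For the lists below each gene is given by its brightest probe set over the arrays, and over all named genes 12.9% were lower and 7.53% higher. By that count 6 of the 10 members were lower (60%) and 0 higher, and 4 did not pass. Of 41 listed symbols of other paired receptors, 20 had a probe set of their own, and the rest were not measured. Of these 20, 11 were lower and 0 higher, with a median log2 difference of -1.23, against -0.01 over all named genes. Pirb, an inhibitory receptor gene for MHC class I, measured 32.1 ± 27.8 in CD117pos and 1969 ± 46.6 in CD117neg arrays (-5.53 ± 0.30), and Treml4, a TREM-like receptor gene, measured 31.4 ± 15.4 in CD117pos and 1216 ± 571 in CD117neg arrays. Cd300ld differed by -3.09 ± 0.14, Cd300lb by -2.93 ± 0.58 and Cd300c2 by -2.40 ± 0.32 (limma, adjusted p between 0.000382 for Cd300ld and 0.0227 for Cd300lb). The Cd300lb difference was -2.18 without mouse _951, and its call ended without mouse _948 (0.08) or _953 (0.104), or with a pseudocount of 1 (0.0558). Without 1 mouse the count of lower genes was 5 (_948), 13 (_951), 8 (_952) and 7 (_953).

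Genes of the signalling steps below these receptors were lower in CD117pos cells for part of the list. Of 30 listed genes of ITIM and ITAM signalling, 27 were measured, of which 16 were lower and 0 higher, with a median of -0.75. Fgr, a Src family kinase gene, measured 120 ± 71.2 in CD117pos and 2278 ± 156 in CD117neg arrays (-4.28 ± 0.37). The adaptor genes Sh3bp2 and Dok2 differed by -2.09 ± 0.36 and -2.04 ± 0.13, Fcer1g, the gene of another ITAM adaptor, by -1.61 ± 0.24, and Malt1, a signalling protease gene, by -1.17 ± 0.12 (limma, adjusted p between 0.000878 for Dok2 and 0.0142 for Sh3bp2). Of the enzymes that ITIM and ITAM motifs recruit, chosen after their values were seen, the kinase gene Syk differed by -1.15 ± 0.18 (limma, adjusted p = 0.0116) and the lipid phosphatase gene Inpp5d by -0.75 ± 0.14 (0.0178). Ptpn6, encoding SHP-1, differed by -1.35 ± 0.35 without passing (limma, adjusted p = 0.0521), but passed without mouse _951 (-0.88, 0.00676), without dim probe sets (0.0357), with an intensity trend (0.0367) and with 1 probe set per gene (0.0472). Ptpn11, encoding SHP-2, differed by -0.18 ± 0.11 (limma, adjusted p = 0.351), and by 0.04 after quantile normalisation. Without mouse _948, _952 or _953 the calls of Sh3bp2 (0.0605, 0.0511 and 0.0696), Syk (0.0556, 0.0558 and 0.0564) and Inpp5d (0.0736, 0.0726 and 0.0773) ended, that of Inpp5d also with a pseudocount of 1 (0.0669), and that of Fcer1g without mouse _953 (0.0502). The count of lower genes was 4 (without _948), 18 (_951), 5 (_952) and 3 (_953), 7 with a pseudocount of 1 and 9 after quantile normalisation, where 1 was higher.

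Among ligands of these receptors and other genes of the CD47 axis, 8 of 22 were lower and 0 higher, with a median of -0.58. Fyb, an adaptor gene of immune cells, measured 17.3 ± 8.08 in CD117pos and 1828 ± 231 in CD117neg arrays (-5.81 ± 0.16). Thbs1, encoding thrombospondin-1, a secreted ligand of CD47, measured 41.1 ± 22.4 in CD117pos and 1005 ± 364 in CD117neg arrays (-4.18 ± 0.18). Pglyrp1, encoding a peptidoglycan recognition protein that binds TREM-1, differed by -2.56 ± 0.41, Cd99 by -1.49 ± 0.14 and the kinase gene Ptk2b by -1.40 ± 0.12 (limma, adjusted p between 0.000166 for Fyb and 0.012 for Pglyrp1). The Pglyrp1 call ended without mouse _948 (0.0561) or _952 (0.0662), and its difference was -2.06 without mouse _951. Calr, encoding calreticulin, a signal for engulfment opposed by CD47, measured 3951 ± 187 in CD117pos and 3381 ± 153 in CD117neg arrays. Its difference of 0.22 ± 0.11, described after its value was seen, did not pass (limma, adjusted p = 0.239), but passed with a pseudocount of 64 (0.0364). Without 1 mouse the count of lower genes was 4 (_948), 9 (_951), 5 (_952) and 5 (_953).

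**Figure D4:**
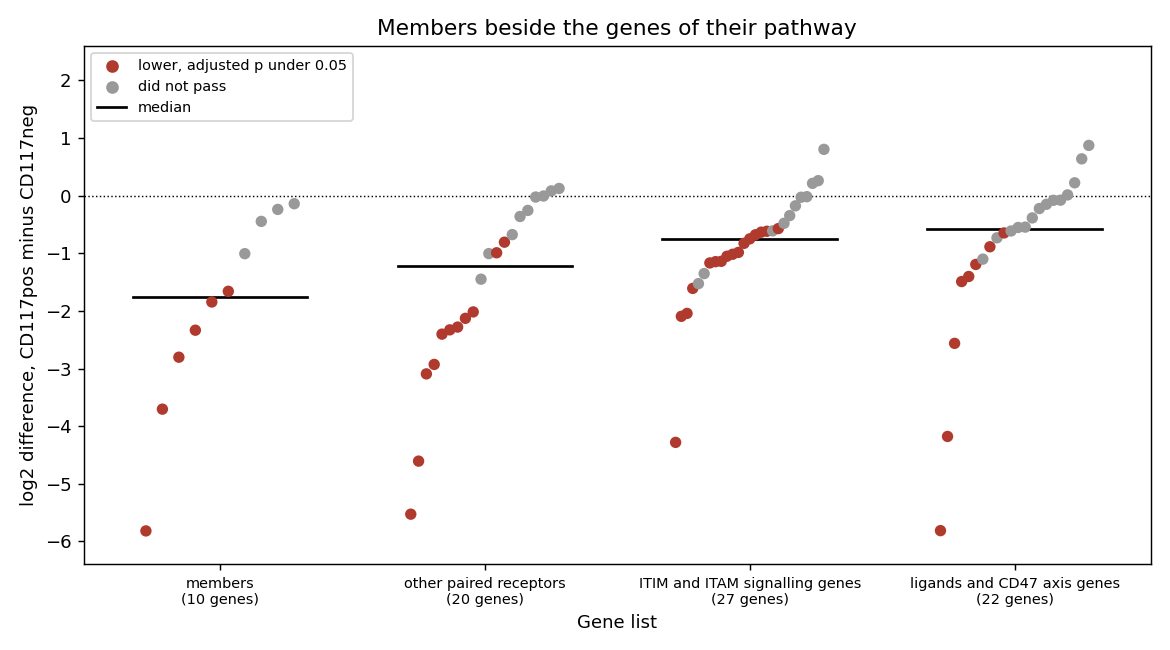
Log2 difference, CD117pos minus CD117neg, of each gene of the members and of 3 lists (points, brightest probe set), with the median of each as a black line. Medians are -1.75, -1.23, -0.75 and -0.58 from left to right, and every called gene lies below 0.

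The genes whose log2 values followed a member most closely over the 8 arrays were sought among 9407 other genes with a mean of at least 64. For Tyrobp they were Vcl (Pearson r = 0.997), Wdfy2 (0.995) and Sla (0.995). For Sirpa they were Sh2b3 (0.9985), Arap1 (0.9977) and Ccr1 (0.9975), and for Cd47 Vps13a (0.987), Fibp (0.982) and Lynx1 (0.981). Vcl, which encodes the cytoskeletal protein vinculin, measured 1301 ± 794 in CD117pos and 3478 ± 268 in CD117neg arrays (SD, n = 4 each) and, like Tyrobp, did not pass (limma, adjusted p = 0.0753). These correlations describe 8 arrays that share mice and fractions.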

How the data were processed

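Each of 8 Affymetrix arrays had 1 deposited linear intensity for each of 45101 probe sets. Per the labels' protocols, the RNA went through 2-cycle amplification and biotin labelling. How the authors summarised probes or scaled arrays is not stated in the labels or files. Array medians were 27.5 to 32.8, and 841 to 902 values per array were at a floor of 1. The number of arrays sets the precision. Names come from the platform annotation, and 64 controls were left out.

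Intensities were used as deposited and taken as log2(intensity + 16). The difference between fractions was fitted by limma 3.58.1 (R 4.3.3, lmFit, eBayes, two-sided moderated test) over 45037 probe sets, with the mouse as a block and Benjamini-Hochberg adjustment at 0.05, after a check on simulated data. Means are ± SD (n = 4) and differences ± SE. The design text gives both fractions of each mouse, which is the pairing. Across probe sets, deviations from the fraction means correlated within mice _948, _951, _952 and _953 at 0.18, 0.17, 0.20 and 0.06, against at most 0.12 between mice. For mouse _953 the correlation between its own fractions, 0.06, was below its highest with another mouse, 0.12.

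All members and the lists were described by a rule: every member probe set, and from each list up to 5 genes with the largest difference past the threshold in each direction, by the probe set with the highest mean. Members and lists were chosen with earlier results of these data known. Plots used Python 3.11.15 and matplotlib 3.10.9.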

Additional observations from a re-analysis of the deposited data

Results flagged for a closer look

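In each fraction of 4 arrays, a value was set apart where its gap to the nearest other value exceeded Dixon's 95% critical share of the range on the log2 scale. This held in 10 of 38 checks of member probe sets, where chance sets apart about 1 in 20, and the checks share arrays. In 5 of the 10 the value was the CD117pos array of mouse _951, which was lowest: 266 for Sirpa (1416985_at), 43.1 for Sirpa (1448534_at), 40.3 for Cd300lf, 68.6 for Pilra and 1697 for Tyrobp. The other CD117pos arrays had 756 to 829, 103 to 105, 332 to 438, 951.9 to 1065 and 4720 to 5310 in the same order. In mouse _952 the CD117pos array was highest for Sirpa (1416986_a_at, 224, against 28.5 to 38.6) and for Cd47 (1459908_at, 62.2, against 38.1 to 39.9). The CD117neg array of mouse _951 was highest for Cd47 (1428187_at, 5415, against 4483 to 4577). For Trem2, whose values were all low, the highest were the CD117pos array of mouse _948 (1421792_s_at, 21.8) and the CD117neg array of mouse _952 (1421226_at, 10.6).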

How the results depend on the processing

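Every difference named by rule or role was recomputed under 13 alternatives where the probe set remained. Of the 10 member calls, 6 held under each of them (Sirpb1a, both of Cd300a, both of Trem1, and Cd47 by 1459908_at). Of the 9 that did not pass, 5 passed under none. Without 1 mouse, 6 to 12 member probe sets were lower and 0 higher, among 1894 to 5571 lower and 456 to 3575 higher over all probe sets. In the same fits 5 to 13 other paired receptors, 3 to 18 signalling genes and 4 to 9 ligand genes were lower. With 1 probe set per gene, 6 members were lower, of 2511 lower and 1504 higher in all. With a pseudocount of 1, 2930 were lower and 1134 higher in all, and 7 signalling genes were lower. After quantile normalisation, 3945 were higher in all, and among signalling genes 9 were lower and 1 higher. In the ligand list 1 gene was higher with a pseudocount of 64, after quantile normalisation or centring, without dim probe sets and without the block. Signs turned for 5 differences that never passed: Cd47 (1419554_at) after quantile normalisation (0.016) and without mouse _948 (0.0056), Sirpa (1416986_a_at) without _952 (-0.51), Trem2 (1421792_s_at) without _953 (0.0895), Trem2 (1421226_at) without _951 (-0.034) and _953 (-0.011), and Ptpn11 after quantile normalisation (0.035). Their values without 1 mouse ran from -0.25 to 0.0056 for Cd47 (1419554_at), from -0.51 to 0.71 for Sirpa, from -0.43 to 0.0895 for Trem2 (1421792_s_at) and from -0.034 to 0.35 for Trem2 (1421226_at). The cause was not tested. Without the replicate block, 11 member probe sets were lower (Cd47 by 1428187_at in addition, adjusted p = 0.0351, difference -0.45), with 5235 lower and 2649 higher in all, and no other call of a named gene changed. Array signal near the floor limits Trem2.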
